A study of Homo sapiens with 2 samples.

Results

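The nuclear genes for proteins of the mitochondrial ribosome were followed in Huh7 cells, a human hepatocellular carcinoma line, after knockdown of BRF2, a TFIIB-related factor that recruits RNA polymerase III to a small set of promoters. The members were all rows of the deposited gene table named MRPL or MRPS with a number, with or without a closing letter A, B or C, and not described as pseudogenes. This rule took 78 of 61541 genes, and it used no measured value. RNA-seq had been performed on 1 library of cells given a control siRNA (Huh7-NC, the control library) and 1 library of cells given an siRNA against BRF2 (Huh7-si, the knockdown library). Both groups were the same cell line with no other agent named, and which BRF2 siRNA sequence was used for sequencing, the time of harvest and any pooling of cultures are not given in the sources used here. With 1 library per condition there was no replicate check, so every difference given here is between these 2 libraries, and every interval covers counting error only.

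The mitochondrial ribosome translates the mRNAs of the mitochondrial genome, which encode core subunits of the respiratory chain and of ATP synthase. Its rRNAs are transcribed inside the organelle, whereas each of its proteins is encoded in the nucleus, translated in the cytosol and imported. Its large subunit holds the peptidyl transferase centre and the exit tunnel, and its small subunit binds the mRNA and holds the decoding centre. Some of its proteins have counterparts in bacterial ribosomes and others are found only in mitochondria.

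Reads assigned to genes totalled 22852648 in the control library and 22089016 in the knockdown library. BRF2 had 1281 reads in the control library and 364 in the knockdown library, or 56.0 and 16.5 reads per 1000000 reads on genes (counts scaled to library size, CPM), a log2 fold change of -1.77 (95% interval -1.94 to -1.60). All 13 hepatocyte and hepatoma markers examined were at 1 CPM or more, with summed levels of 20759 CPM in the control library and 21448 in the knockdown library. Single hepatocyte markers ran from -0.83 (APOA1) to 1.04 (APOB) on the log2 fold change scale. Of the markers of other cells, 1 of 4 for blood, 1 of 3 for endothelium, 3 of 4 for stellate cells and fibroblasts and 2 of 3 for bile duct reached 1 CPM, and CD3E, HBB and DCN had 0 reads in both libraries. The summed stellate and fibroblast markers were at 11.8 CPM in the control library and 22.5 in the knockdown library, with COL1A1 at 1.63, and the part of this in the members' values was not tested. Log2 fold changes are of CPM in Huh7-si over Huh7-NC, with 0.5 reads added to each count.

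All 78 members were expressed, with 672 to 19879 reads over both libraries, and as a family they were lower in Huh7-si. Their reads summed to 138447 in the control library and 99103 in the knockdown library, which is 6058 and 4487 CPM, or 0.606% and 0.449% of all reads. The summed level was 25.9% lower in Huh7-si (log2 fold change -0.43, 95% interval -0.45 to -0.42). These values are shares of each library's reads, and in bulk RNA of this kind fewer cells with these mRNAs and less of these mRNAs per cell cannot be told apart.

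The difference was spread over the family rather than carried by a few abundant genes. The median member had a log2 fold change of -0.44, or 26.5% lower, and the quartiles were -0.56 and -0.30. Of the 78 members, 76 had values below 0. The 95% interval lay wholly below 0 in 74 members (94.9%), against 32.2% of the 8489 genes in the same range of reads. It lay above 0 in 1 member (1.28%), against 45.6% of those genes, and it held 0 in 3 members, MRPL42, MRPS10 and MRPS31.

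The size of the difference was modest in nearly every member. At a fold of at least 2 with an unadjusted p under 0.05 in the exact binomial test, 0 members were called lower and 0 higher, where 1.02% of the 26379 genes with a read were called lower and 10.4% higher. At a fold of at least 1.5, 13 members (16.7%) were called lower, against 2.87% of genes, and 0 were called higher, against 17.6% of genes. These shares are over all genes with a read, many of which had fewer reads than any member, and not over genes in the members' range of reads. Large subunit genes made up 7 of the 13 (MRPL4, MRPL12, MRPL19, MRPL23, MRPL40, MRPL48 and MRPL52) and small subunit genes 6 (MRPS11, MRPS17, MRPS23, MRPS26, MRPS28 and MRPS34), of which MRPL4, MRPS17 and MRPS23 are named for this list after their values were seen. The members' range was -0.99 to 0.17 on the log2 scale. Protein-coding genes in the same range of reads had a median of 0.07, and 9.10% of these 8249 genes were at or below the members' median.

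**Figure D1:**
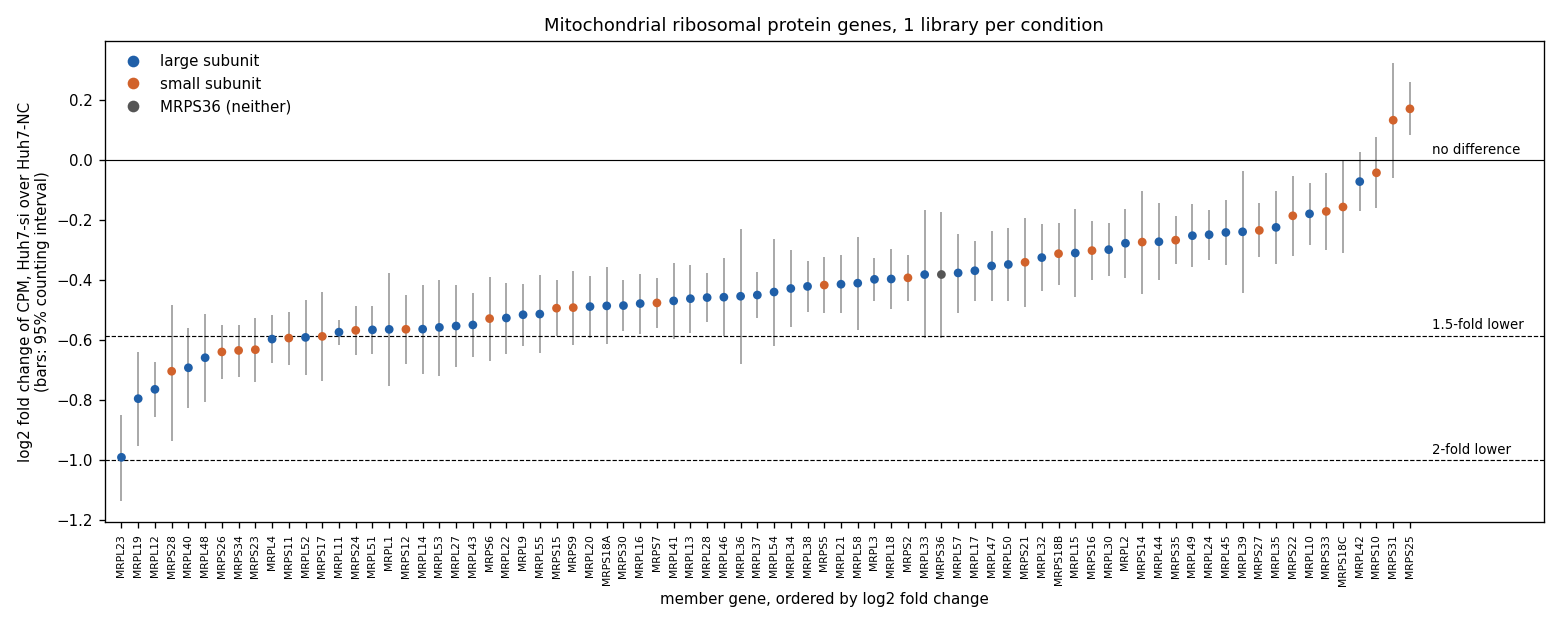
The log2 fold change of CPM in Huh7-si over Huh7-NC (y axis) is plotted for each of the 78 members (x axis, in order of the value), with points coloured by subunit and bars for the 95% counting interval. Of the 78 points 76 lie below 0, and the large and small subunit genes are mixed along the order, with MRPL23 lowest at -0.99 and MRPS25 highest at 0.17.

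The direction of the family held on other scales, while its size did not. Scaling by edgeR's trimmed mean (TMM) moves every log2 fold change by -0.22, which puts the members' median at -0.67, and all 78 members below 0, with protein-coding genes in the same range of reads at a median of -0.16. Under TMM 52 members were called lower at a fold of at least 1.5, against 8.36% of all genes with a read, at any number of reads. In the deposited TPM, which is scaled per transcript length, the members' median log2 ratio was -0.28 and 69 of 78 were below 0, against a median of 0.28 and 27.2% below 0 for protein-coding genes in the same range of reads.

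Transcript length moved with the difference. Short transcripts as a class were lower in Huh7-si, and most members have short transcripts. The length of the transcripts in use was implied from the reads that made up each unit of TPM. The members' median was 907 bases, from 249 to 3244, against 2295 bases for protein-coding genes. The measure was scaled on genes of at least 4000 bases and was not checked on short transcripts, for which it may be too low. MRPL53, with the shortest listed length of a member at 496 bases, had an implied length of 263. Implied length thus serves here as a scale for ordering genes. Across protein-coding genes in the members' range of reads, implied length and log2 fold change had a Spearman rho of 0.65 (n = 8249 genes), and across the members the rho was 0.42 (n = 78). These are descriptions across genes of the same 2 libraries, and genes are not replicates.

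After the median of protein-coding genes of like implied length was taken away, the members' median was -0.20 and 69 of 78 stayed below 0. Protein-coding genes in the members' range of reads then had a median of -0.06, with 58.0% below 0, and 29.3% of them were at or below the members' median. With the listed gene length in place of the implied length, the members' median was -0.22 with 74 below 0, and with length and level together it was -0.15 with 67 below 0. Within like length most members kept the same sign, and the size was smaller. The part of transcript length in the lower levels was not tested beyond these values.

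**Figure D2:**
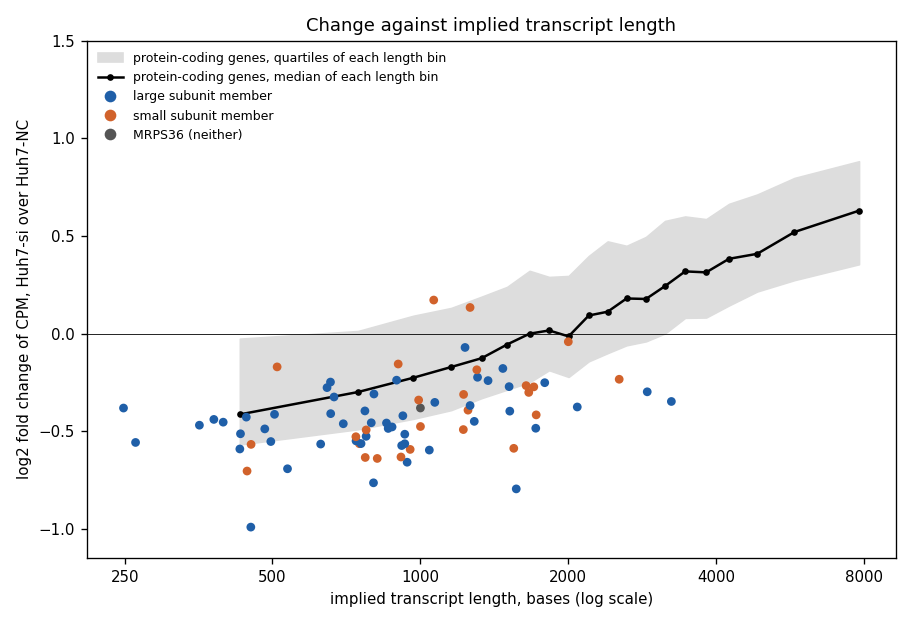
The log2 fold change (y axis) is plotted against implied transcript length in bases (x axis, log scale). The black line and grey band give the median and quartiles of protein-coding genes in 20 length bins, and points are the 78 members by subunit. The bin medians climb with length, most members lie left of 2000 bases, and 69 of 78 lie below the median of their own bin.

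Levels differed far more between members than between the libraries. TPM is used for levels here because it is scaled to transcript length. In Huh7-NC the members ran from 17.75 to 681 TPM with a median of 93.9, a 38.4-fold range, and in Huh7-si from 18.47 to 553 TPM with a median of 80.1, a 29.9-fold range. The order of the members was nearly the same in both libraries (Spearman rho 0.976 over 78 genes). MRPL11, a protein of the stalk that contacts translation factors, was the most abundant, at 681 TPM in the control library and 553 in the knockdown library.

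MRPS24, MRPL51, MRPL24 and MRPL21 followed MRPL11 by mean TPM. MRPS24 was at 361 TPM in the control library and 270 in the knockdown library, MRPL51 at 279 and 211, and MRPL24, a tunnel exit protein, at 216 and 206. At the other end were MRPS14 (19.5 and 18.8 TPM), MRPL50 (21.3 and 19.0), MRPS31 (17.8 and 23.4) MRPL19 (32.4 and 19.9) and MRPS36 (26.3 and 18.5). Members with higher TPM in Huh7-NC tended to have lower log2 fold changes (rho -0.46, n = 78). The Huh7-NC library stands on both sides of that correlation, and with mean TPM the rho was -0.39.

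**Figure D3:**
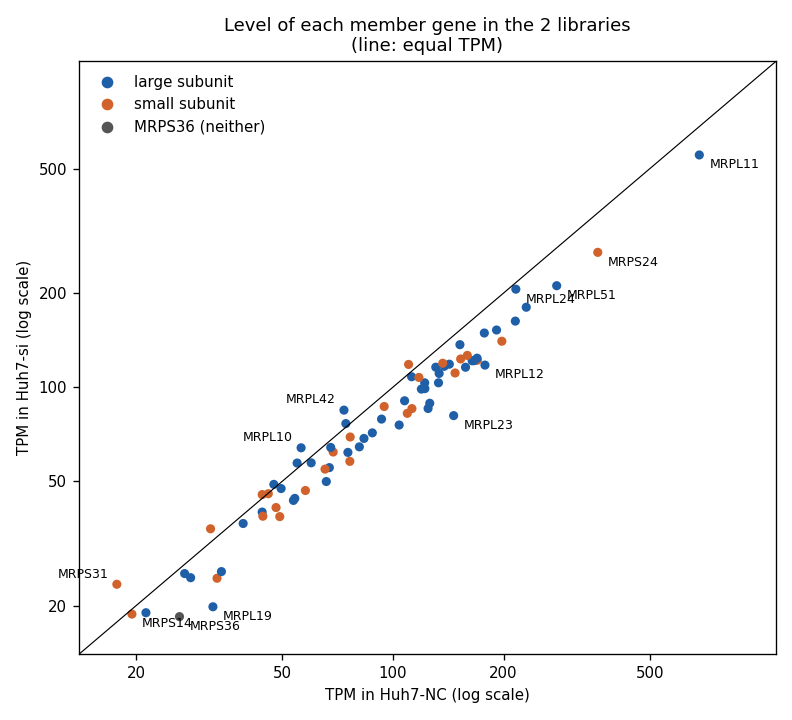
Each point is 1 of the 78 members, with its TPM in Huh7-NC on the x axis and in Huh7-si on the y axis, both log scales, and the line marks equal TPM. Of the 78 points 69 lie below the line, and the order from MRPS31 and MRPS14 up to MRPL11 (681 and 553 TPM) is largely kept.

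The subunits did not stand apart. The 51 large subunit genes had a median log2 fold change of -0.45, with 50 intervals below 0 and 1 that held 0. The 26 small subunit genes had a median of -0.40, with 23 below 0, 1 above 0 and 2 that held 0. The gap between the medians was -0.05, and it turned to 0.08 after genes of like implied length were taken away. Proteins with bacterial counterparts (45 genes, median -0.46) and those found only in mitochondria (29 genes, median -0.42) differed by as little over both subunits. The 3 paralogs of bacterial S18 (median -0.31) and MRPS36 were left out of both classes. Within the small subunit the conserved genes (n = 15) had a median of -0.49 and the genes found only in mitochondria (n = 9) a median of -0.23, and less genes of like implied length both medians were -0.27.

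Among the large subunit genes the stalk proteins MRPL10, MRPL11 and MRPL12 did not move alike. MRPL12, which binds elongation factors at the stalk, had 2661 reads in the control library and 1514 in the knockdown library (log2 fold change -0.76, interval -0.86 to -0.67). A gene model that overlaps MRPL12 on the same strand, AC139530.2, had 469 and 249 reads, so reads may be shared between them. MRPL11 had 12050 and 7829 reads (-0.57, interval -0.61 to -0.53). MRPL10, which anchors the MRPL12 copies to the stalk base, had 1652 and 1411 reads (-0.18, interval -0.28 to -0.08), and its TPM was higher in Huh7-si, at 64.0 against 56.3. The intervals of MRPL10, MRPL11 and MRPL12 on the CPM scale did not overlap.

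MRPL23, a conserved protein at the exit of the tunnel, had the lowest log2 fold change of CPM of all members. Less genes of like implied length MRPL19 was lowest at -0.74, and MRPL23 was at -0.58. MRPL23 had 1219 reads in the control library and 593 in the knockdown library, or 53.4 and 26.8 CPM (-0.99, interval -1.13 to -0.85). The gene (ENSG00000214026, plus strand) lies at chr11:1947278-1984522 in GRCh38, and an antisense gene that overlaps it, MRPL23-AS1, had 69 and 92 reads. The 8 tunnel exit genes otherwise had modest differences, and their median was -0.31, or -0.20 less genes of like implied length. MRPL24 was at -0.25 with 2649 and 2156 reads, and MRPL45, which holds the ribosome to the inner membrane, was at -0.24 with 1538 and 1258 reads.

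The central protuberance is the crown of the large subunit that faces the small subunit. Its 8 genes all had intervals below 0 and a median of -0.48. Less genes of like implied length that median was -0.15, against -0.20 for all members. MRPL40 had 1237 reads in the control library and 740 in the knockdown library (-0.69, interval -0.83 to -0.56), and MRPL48 had 1014 and 621 (-0.66, interval -0.80 to -0.51). MRPL58, also known as ICT1, is a peptidyl-tRNA hydrolase that became a ribosomal protein, and it had 811 and 590 reads (-0.41, interval -0.57 to -0.26). Around the peptidyl transferase centre the 3 genes had a median of -0.40, and of -0.25 less genes of like implied length.

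Of the other large subunit genes MRPL19 had the lowest value, with 921 reads in the control library and 513 in the knockdown library (-0.79, interval -0.95 to -0.64). Its listed length was 7825 bases and its implied length 1568 bases, and 10 members in all had a listed length over 2 times the implied one. MRPL42 was the large subunit gene with the smallest difference, at 1751 and 1611 reads (-0.07, interval -0.17 to 0.03). MRPS30, which carries a small subunit name but sits in the large subunit, had 2701 and 1866 reads (-0.48, interval -0.57 to -0.40). MRPL51, MRPL21 and MRPL50 were at -0.57, -0.41 and -0.35, and less genes of like implied length at -0.27, 0.000337 and -0.59.

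In the small subunit the 3 genes of the mRNA entry and the decoding centre had a median of -0.56. Less genes of like implied length this median was -0.26. MRPS12, the counterpart of the bacterial decoding protein S12, had 1575 reads in the control library and 1030 in the knockdown library (-0.56, interval -0.68 to -0.45). MRPS24 had 3018 and 1969 reads (-0.57, interval -0.65 to -0.48). MRPS28, MRPS26 and MRPS34 were the lowest small subunit genes, at -0.70, -0.64 and -0.63. MRPS28 had 434 and 257 reads, and a gene model on the same strand, AC036214.3, had 392 and 233, so the reads of the pair may be shared between them.

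The small subunit head held 2 of the 3 members whose interval held 0. Its 7 genes had a median of -0.27, and its other 5 intervals lay below 0. MRPS31 had 432 reads in the control library and 458 in the knockdown library (0.13, interval -0.06 to 0.33), and MRPS10 had 1197 and 1124 (-0.04, interval -0.16 to 0.08). MRPS33 had 1088 and 934 reads (-0.17, interval -0.30 to -0.04), and MRPS14 had 630 and 504 (-0.27, interval -0.44 to -0.10). The head genes also had longer implied transcripts, with a median of 1263 bases, and less genes of like implied length their median was -0.25 against -0.20 for all members.

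The 3 paralogs of bacterial S18 were ranked MRPS18A, MRPS18B and MRPS18C. MRPS18A, which sits in the large subunit, had 1222 reads in the control library and 844 in the knockdown library (-0.49, interval -0.61 to -0.36). MRPS18B had 1746 and 1360 (-0.31, interval -0.41 to -0.21), and MRPS18C had 748 and 649 (-0.16, interval -0.31 to -0.00). The intervals of MRPS18A and MRPS18C did not overlap, whereas that of MRPS18B overlapped both. MRPS36, now known as a subunit of the 2-oxoglutarate dehydrogenase complex rather than of the ribosome, had 442 and 328 reads (-0.38, interval -0.59 to -0.17), close to the family median.

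MRPS25 was the member whose interval lay above 0, with 1982 reads in the control library and 2159 in the knockdown library (0.17, interval 0.08 to 0.26), but it was at -0.05 under TMM scaling and at -0.13 in TPM, where it went from 117.7 to 107.5. Less genes of like implied length it was at 0.40, the highest value among the 78 members, and less genes of like listed length at -0.16. NR2C2, a gene on the opposite strand that overlaps MRPS25 and was named after its values were seen, had 719 and 1702 reads. Whether the counting used strand is not given in the sources used here, so reads of MRPS25 and NR2C2 may not be separable. MRPS22, in which mutations cause mitochondrial disease, had 1011 and 859 reads (-0.18, interval -0.32 to -0.05).

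The spread between members was larger than counting error. The SD of the members' log2 fold changes was 0.19, whereas an interval typically reached 0.12 to either side of its value (median over members). The interval held the family median of -0.44 in 41 members, lay above it in 21 and lay below it in 16. Overlap with other expressed genes did not mark the members with lower values: 43 members with no such overlap had a median of -0.44 and 35 with an overlap had a median of -0.45. The annotated pseudogenes of the family numbered 79, of which 8 had a read, and they held 82.1 reads in the control library and 190.0 in the knockdown library in all.

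Some of these genes start head to head with a neighbour, and the share of all genes that do so was not computed. Partners were protein-coding genes on the opposite strand with at least 10 reads over both libraries. Their annotated gene start lay up to 1000 bases before the member's own, or up to 300 bases past it. Such a partner was found for 21 members. MRPS11 and MRPL46 face each other with their starts 34 bases apart, and both were lower, at -0.59 (2634 and 1688 reads) and -0.46 (1182 and 833 reads). The other 19 members made 20 pairs with genes outside the family, and the 2 sides of these pairs differed: the members had a median of -0.40 and the partners a median of 0.07. Among the partners 7 intervals lay below 0 and 9 above 0.

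The partner was above the member in 15 of the 20 pairs. MRPS34 was at -0.63, and its partner EME2, with a start 52 bases away, had 311 reads in the control library and 709 in the knockdown library (1.24). MRPL27 was at -0.55, and EME1, 6 bases away, had 481 and 600 reads (0.37). The opposite order was seen for MRPL32 at -0.32, whose partner PSMA2 had 3289 and 1760 reads (-0.85). These pairs were named after their values were seen. Partners had longer implied transcripts than the members (medians 1601 and 771 bases), and less genes of like implied length the medians were 0.05 and -0.16. Under TMM scaling the partners' median was -0.16, with 11 of 20 below 0.

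**Figure D4:**
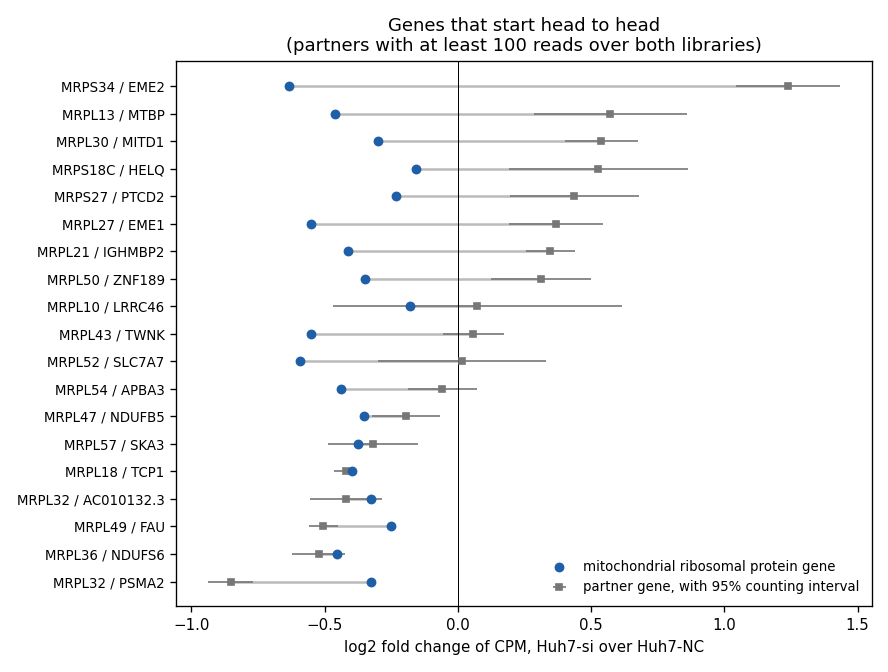
For 19 pairs of a member and a head to head partner with at least 100 reads, the x axis gives the log2 fold change of the member (blue) and of the partner (grey, with its 95% counting interval). The members all lie below 0, whereas the partners run from -0.85 for PSMA2 to 1.24 for EME2. The pair of MRPL41 with PNPLA7, which had 3 and 18 reads, is not drawn.

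The start regions of many members carry letters known as binding motifs of factors that act on mitochondrial genes. Windows of 250 bases before to 50 after the RefSeq start (GRCh38.p14) were found for 69 members and searched on both strands. The ETS motif CCGGAAG, bound by GABP among others, was found in 29 of 69 members (42.0%), in 22.3% of 6772 protein-coding genes in the members' range of reads and in 10.7% of all 27305 windows. The YY1 motif AAGATGGCG was found in 13 members (18.8%), in 5.08% of the genes in range and in 1.85% of all windows.

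The NRF1 core GCATGCGC was less frequent, in 6 members (8.70%) against 6.35% of the genes in range and 3.27% of all windows. The shorter NRF1 site TGCGCA was found in 14 members (20.3%), against 15.0% and 8.42%. Its letters read the same on both strands, so each site was counted once, and 6 of its 17 sites overlapped a core match. An ETS or YY1 motif was found in 38 members (55.1%), against 26.2% of the genes in range. Of the 39 ETS matches 30 lay wholly before the start, and of the 14 YY1 matches 10 lay across or after it.

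The following windows show the ETS letters, or their reverse complement, in capitals. They are from 3 of the members with the lowest log2 fold changes, MRPL40 (chr22:19432485-19432544, plus strand), MRPL48 (chr11:73787785-73787844, plus strand) and MRPS26 (chr20:3045989-3046048, plus strand), and from a member with the highest, MRPS31 (chr13:40771191-40771250, minus strand). Each is read on the strand of its gene.
MRPL40: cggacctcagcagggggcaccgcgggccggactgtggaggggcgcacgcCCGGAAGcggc
MRPL48: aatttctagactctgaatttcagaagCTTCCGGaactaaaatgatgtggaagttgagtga
MRPS26: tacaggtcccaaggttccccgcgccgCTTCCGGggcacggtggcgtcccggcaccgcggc
MRPS31: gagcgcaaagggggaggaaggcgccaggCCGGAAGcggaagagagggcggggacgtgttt

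The same letters thus stood before genes at both ends of the order, MRPL40 at -0.69 and MRPS31 at 0.13. Members with and without an ETS motif had medians of -0.46 and -0.45, and members with and without a YY1 motif had medians of -0.45 and -0.45. For the NRF1 core the medians were -0.35 with it and -0.46 without. Presence of these letters is a description of the window and not of a bound factor.

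The YY1 and NRF1 letters are shown in capitals for MRPL52, MRPL22, MRPL17 and MRPS24. These members were chosen after their values were seen, and all members with YY1 or NRF1 core letters had log2 fold changes of CPM below 0. MRPL52 and MRPS24 were the lowest of the 13 members with YY1 letters. MRPL52, MRPL22 and MRPL17 were the lowest of the 6 with the NRF1 core. Members nearer 0, such as MRPL42 (YY1, -0.07), MRPS10 (YY1, -0.04) and MRPS18C (NRF1 core, -0.16), are not shown. The windows lie at chr14:22829764-22829823 (MRPL52, YY1, plus strand), chr7:43869479-43869508 (MRPS24, YY1, minus strand), chr14:22829686-22829745 (MRPL52, NRF1 core, plus strand), chr5:154941013-154941072 (MRPL22, NRF1 core, plus strand) and chr11:6683350-6683409 (MRPL17, NRF1 core, minus strand).
MRPL52 YY1: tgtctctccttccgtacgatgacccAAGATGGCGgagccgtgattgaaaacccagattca
MRPS24 YY1: cgcttggcccAAGATGGCGgcctccgtgtg
MRPL52 NRF1: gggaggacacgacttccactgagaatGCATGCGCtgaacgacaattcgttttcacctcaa
MRPL22 NRF1: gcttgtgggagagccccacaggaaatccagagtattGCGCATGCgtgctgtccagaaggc
MRPL17 NRF1: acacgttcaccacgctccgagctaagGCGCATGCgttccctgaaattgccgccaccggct

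MRPL52, which holds motifs of both kinds, had 1340 reads in the control library and 860 in the knockdown library (-0.59). In MRPS24 the YY1 letters lie after the start. MRPL22 was at -0.53 with 1451 and 974 reads, and MRPL17 at -0.37 with 1903 and 1425 reads. In TPM MRPL17 was slightly higher in the knockdown library, at 76.5 against 74.5 in the control library.

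Genes for the factors and coactivators did not all move one way. Of 9 regulators of mitochondrial genes 2 had intervals below 0, 5 above 0 and 2 that held 0, with a median of 0.13 that became -0.09 under TMM scaling. NRF1 had 586 reads in the control library and 496 in the knockdown library (-0.19, interval -0.37 to -0.02), with a TPM that was higher in Huh7-si, and ESRRA, a nuclear receptor of energy metabolism, had 1132 and 900 (-0.28). YY1 had 1759 and 1712 reads (0.01, interval -0.09 to 0.11). Of the GABP subunits GABPA, which binds the ETS letters, had 443 and 572 reads (0.42, interval 0.24 to 0.60) and GABPB1 had 887 and 847 (-0.02, interval -0.16 to 0.12). YY1, GABPA and GABPB1 were named after their values were seen, and under TMM scaling they were at -0.22, 0.19 and -0.24. The coactivators PPARGC1A (46 and 136 reads, 1.60, called higher) and PPARGC1B (65 and 119 reads, 0.92) were higher in Huh7-si at low counts.

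The rRNAs of the same ribosome went the other way. MT-RNR1, the small subunit rRNA, had 13058 reads in the control library and 22273 in the knockdown library (0.82, interval 0.79 to 0.85), and MT-RNR2, the large subunit rRNA, had 44430 and 75637 (0.82, interval 0.80 to 0.83). They remained above 0 under TMM scaling, with a median of 0.59, while the proteins' median was -0.67. How rRNA was removed or mRNA selected in these libraries is not given in the sources used here.

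The mRNAs that this ribosome translates were also higher in Huh7-si. All 13 had intervals above 0, with a median of 0.30 that became 0.07 under TMM scaling, where MT-ATP6 and MT-ND3 were at -0.0068 and -0.12. MT-ND3 had 10520 reads in the control library and 10953 in the knockdown library (0.11), MT-ATP6 had 52287 and 58778 (0.22), and MT-ND5 had 40886 and 74424 (0.91). MT-ND4L, called higher at 2.28 with 711 and 3334 reads, overlaps MT-ND4, so its reads are uncertain. The median of the organelle mRNAs was thus above 0, and that of the nuclear mRNAs for the ribosomal proteins below 0, under both scalings.

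Mitochondrial ribosome proteins with other names were mostly lower as well. Of 5 such genes outside the 78 members 4 had intervals below 0 and 1 above 0, with a median of -0.59. AURKAIP1 had 3147 reads in the control library and 1854 in the knockdown library (-0.71), GADD45GIP1 had 2275 and 1446 (-0.60), and DAP3, a GTP-binding small subunit protein, had 5963 and 4602 (-0.32). PTCD3, a pentatricopeptide repeat protein of the small subunit, was at 0.35 with 2213 and 2724 reads (interval 0.27 to 0.43).

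Genes that assemble the ribosome and modify its rRNA were split. Of 24 genes 11 had intervals below 0, 4 above 0 and 9 that held 0, with a median of -0.17. MRM1, an rRNA methyltransferase, had 223 reads in the control library and 141 in the knockdown library (-0.61), and MPV17L2 had 1425 and 916 (-0.59). YBEY, an RNA processing enzyme, had 171 and 245 (0.57), and METTL17 had 1175 and 1557 (0.46). Less genes of like implied length the list's median was -0.21, next to -0.20 for the members.

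Of 15 translation factor genes 4 had intervals below 0, 5 above 0 and 6 that held 0, with a median of 0.05 that became -0.17 under TMM scaling. Less genes of like implied length 10 of the 15 were below 0, with a median of -0.11. TSFM, the exchange factor for the elongation factor TUFM, had 1278 reads in the control library and 828 in the knockdown library (-0.58), and TUFM had 7866 and 6010 (-0.34). MTRF1, a release factor, had 153 and 264 (0.83), and GUF1, a back-translocating factor, had 903 and 1077 (0.30).

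Of 16 genes of mitochondrial transcription and RNA processing 7 had intervals below 0, 5 above 0 and 4 that held 0, with a median of -0.05. Less genes of like implied length 13 of the 16 were below 0, with a median of -0.12. SLIRP had 959 reads in the control library and 580 in the knockdown library (-0.68), whereas LRPPRC, its partner in a complex that stabilises mitochondrial mRNAs, had 3288 and 3880 (0.29, interval 0.22 to 0.36). HSD17B10, a subunit of mitochondrial RNase P, had 5106 and 3222 (-0.62), and MTERF1, a transcription termination factor, had 260 and 357 (0.51).

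The cytosolic ribosomal protein genes resembled the members. All 77 had intervals below 0, with a median log2 fold change of -0.53, from -0.89 for RPL31 (12678 and 6606 reads) to -0.21 for RPL37 (30106 and 25210 reads), and RPS19 and RPL12 were at -0.70 and -0.36. Their implied transcripts were shorter still, with a median of 431 bases, and less genes of like implied length their median was -0.15 against -0.20 for the members. Both families of ribosomal protein genes were thus lower in Huh7-si by a like amount, with and without the comparison within like length.

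**Figure D5:**
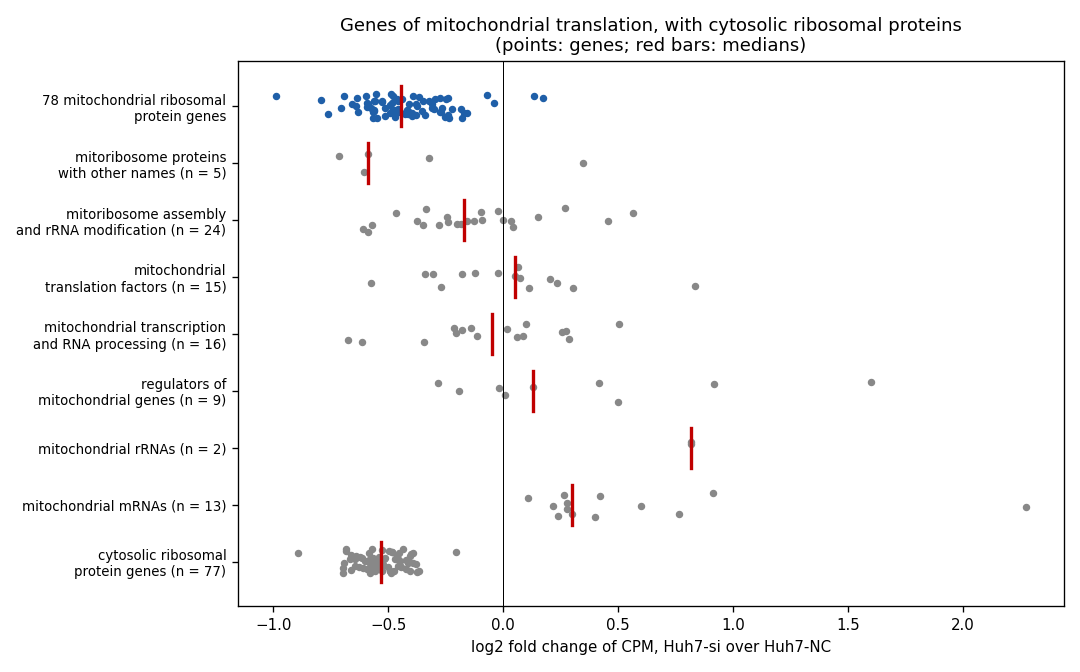
The x axis gives the log2 fold change of CPM in Huh7-si over Huh7-NC, each row is a gene list, points are genes (spread vertically for sight) and red bars are medians. The 78 mitochondrial and 77 cytosolic ribosomal protein genes are centred at -0.44 and -0.53, the mitochondrial rRNAs and mRNAs lie above 0, and the factors and regulators straddle 0.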

How the data were processed

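RNA-seq of Huh7 cells was analyzed with 1 library in each of 2 conditions, grouped by the sample titles. Per the labels (the submitters' processing notes), GRCh37, Bowtie2 2.0.6 and TopHat2 2.0.12 were named; the counter, annotation and strandedness are not given in the sources used here. The deposited table holds, for each library, estimated counts and TPM made by the authors. Its deposited fold ratio, log2 and p-value columns hold the authors' own comparison and were not used.

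Estimated counts were divided by the library total (CPM); log2 fold changes used a pseudocount of 0.5 reads, and counts were rounded for a two-sided exact binomial test and 95% Clopper-Pearson intervals. A p-value from it bears on this pair of libraries and not on the conditions. Genes with at least 1 read were tested and medians used genes with at least 10. Implied transcript length was reads per unit of TPM, scaled on 152 single-transcript genes of at least 4000 bases with at least 200 reads in each library. Gene types and positions came from GENCODE release 29 (GRCh38), which held 94.8% of the identifiers and all 78 members, and start windows from RefSeq (GRCh38.p14).

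The members, gene lists, subunit classes and named genes were chosen with earlier results of these data known. The named genes were BRF2, the 8 members with the lowest and the 8 with the highest log2 fold changes, the 5 with the highest and the 5 with the lowest mean TPM, proteins of known role, and the 2 lowest and 2 highest of each list with at least 100 reads. Alternatives were TMM (edgeR 4.0.16), median of ratios (DESeq2 1.42.0) and upper quartile scaling, TPM, gene length, filters, pseudocounts, pseudogene reads, a fold of 1.5, adjustment and edgeR's exact test with an assumed coefficient of variation of 0.1 or 0.4. Python 3.11.15, SciPy 1.17.1 and R 4.3.3 were used.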

Additional observations from a re-analysis of the deposited data

How the results depend on the processing

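No paired analysis was possible because there was 1 library per condition, and for the same reason no library could be left out. The count of members called higher was 0 under every alternative run for it. The count called lower, 0, became 2 under TMM, 2 under median of ratios, 1 under upper quartile scaling and 13 at a fold of 1.5. The 13 stayed 13 in edgeR's exact test with an assumed coefficient of variation of 0.1 and became 0 at 0.4. The share of all genes with a read called lower at a fold of 1.5 also moved with scaling. It was 2.87% with library totals, 8.36% under TMM, 7.88% under median of ratios and 7.09% under upper quartile scaling. Such shares at a fold of 2 under the other scalings, and in edgeR's test, are not given here. The count of intervals above 0, 1, became 0 under TMM, 0 under median of ratios and 0 under upper quartile scaling, and 2 with pseudogene reads added. For genes in the members' range of reads the share above 0 was 45.6% with library totals and is not given here for the other scalings. Their share below 0 was 32.2% with library totals and 51.3% under TMM. The members' median log2 fold change, -0.44, was -0.67 under TMM, -0.65 under median of ratios, -0.63 under upper quartile scaling, -0.28 in TPM, -0.22 less genes of like length, -0.15 less genes of like length and level and -0.20 less genes of like implied length, the last being an alternative chosen after seeing the data. Filters, other pseudocounts and pseudogene reads left it within 1 SD of the members. The gap of the large and small subunit medians, -0.05, was 0.0841 less genes of like implied length.

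Among the named genes set out above, those whose interval excluded 0 changed sign as follows. Under TMM MRPS25 was at -0.0528, MT-ATP6 at -0.0068 and MT-ND3 at -0.12, and under median of ratios MRPS25 was at -0.0351 and MT-ND3 at -0.0998. In TPM DAP3 was at 0.0700, MRPL10 at 0.19, MRPS18C at 0.0403, MRPS25 at -0.13, MRPS33 at 0.10 and NRF1 at 0.21. Less genes of like length GUF1 was at -0.0290, LRPPRC at -0.0646, MRPL24 at 0.0431, MRPS25 at -0.16, MRPS33 at 0.19 and PTCD3 at -0.0971. Less genes of like implied length GUF1 was at -0.0162, LRPPRC at -0.0258, MRPL21 at 0.000337, MRPL24 at 0.0510, MRPS18C at 0.0708, MRPS33 at 0.24, RPL12 at 0.0489 and RPL37 at 0.21. Members outside the named genes with intervals below 0 also changed sign. In TPM MRPL15 was at 0.0597, MRPL17 at 0.0384 and MRPL35 at 0.0434, and less genes of like implied length MRPL2 was at 0.0226 and MRPL33 at 0.0326. Of the members whose interval held 0, MRPS31 was at -0.09 under TMM and -0.07 under median of ratios, MRPL42 was at 0.20 in TPM, 0.29 less genes of like length and 0.10 less genes of like implied length, and MRPS10 was at 0.14 in TPM. The cause was not tested beyond the change of scale itself. Counting error limited single members to half-widths of 0.04 to 0.23 on the log2 scale.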

Other observations

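The number of bases behind each unit of TPM differed between the libraries for single members. The median log2 ratio of implied length, Huh7-si over Huh7-NC, was 0.02 over the 78 members, and 29 members had a shorter implied length in Huh7-si. It ranged from -0.22 to 0.49. For protein-coding genes in the members' range of reads the median was -0.00 and 53.1% were shorter. MRPS25, with the highest CPM ratio among the members, was at the upper end, with implied lengths of 899 bases in Huh7-NC and 1260 in Huh7-si.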
